A study of Saccharomyces cerevisiae with 94 samples.

Results

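Stable unannotated transcripts (SUTs) are noncoding RNAs that RNA polymerase II makes in wild-type budding yeast, capped at the 5′ end and carrying a pA-tail, often from the open chromatin at the ends of protein-coding genes and antisense to them. They were catalogued beside CUTs (cryptic unstable transcripts), which the nuclear exosome removes, and XUTs, which accumulate when the cytoplasmic 5′ to 3′ exonuclease Xrn1 is missing. In the cytoplasm, an RNA of this kind can meet the machinery that acts on mRNA: the deadenylases Ccr4-Not and Pan2-Pan3 shorten the tail, the enzyme Dcp2 removes the cap, and Xrn1 degrades the body. The members were all transcripts that the deposited tables place in the biotype SUTs, 235 of the 8157 transcripts with coordinates. The names SUT1 (YGL162W) and SUT2 (YPR009W) belong to protein-coding genes, a transcription factor and its relative, so 233 noncoding SUTs were described. A further 523 IDs of the biotypes XUTs or CUTs hold a SUT name within a joined name, and they were kept apart from the members. SUT719, the known antisense transcript of SUR7, occurs only in such a joined ID and therefore has no value of its own.

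Direct RNA sequencing (DRS), in which single poly(A)+ RNA molecules pass a nanopore, gave the number of reads and the mean pA-tail length of each transcript in 94 samples, of which 58 columns of values were used. All samples are labelled W303, but the study's strain list gives the ccr4 and pan2 deletion strains, and a WT to match them, another background with integrated PGK1pG and MFA2pG reporter genes, and which WT strain the WT samples came from is not given in the sources used here. In 3 chases, RNA was followed in time: in Mex67-AA cells at 25 °C from 0 to 30 min after rapamycin (replicates A, B and C, 17 libraries), in WT cells shifted to 37 °C and sampled from 0 to 20 min (heat stress, replicates A, B and D, 18 libraries), and in WT cells at 25 °C treated with thiolutin for 0 to 60 min (replicate A, 8 libraries). Rapamycin tethers the Mex67-AA protein, the main mRNA export receptor fused to FRB, to a ribosomal protein fused to FKBP12. Rapamycin so removes this receptor from the nucleus. The strain carries tor1-1 and fpr1 alleles at 0 min as well as later. Thiolutin inhibits transcription, but the study used a low dose and concludes that it sets off a response like that to heat stress. The study reports that chaperone mRNAs rose with thiolutin. mRNAs silenced in heat stress fell, and other transcripts kept their levels. The thiolutin course is therefore not a general stop of transcription. The other groups have 1 column each: Dcp2-AID and Xrn1-AID cells after 2 h with 1-NAA, which destroys proteins carrying an auxin-inducible degron (AID), against control cells with the same 1-NAA (2 samples each); Pab1-AID cells, partly depleted of Pab1 after 1 h or 2 h with auxin, against the same strain without auxin (2 samples each); the ccr4 deletion (6 samples) and the pan2 deletion (3 samples) against WT (8 samples); the pop2 deletion (1 sample) and WT RNA digested with purified Xrn1 (1 sample), both against undigested WT RNA (1 sample); and Mex67-AA cells after 16 min with rapamycin, added shortly before a shift to 37 °C, against the strain at 25 °C without it (2 samples each). These groups are labelled 25 °C except where 37 °C is stated, but the study's sample list and some titles and column names give 30 °C for WT, the ccr4, pan2 and pop2 deletions and the WT RNA with and without digestion, so their growth temperature is uncertain. Per the strain list, the Xrn1-AID strain also carries the tor1-1, fpr1 and RPL13-2xFKBP12 alleles of the Mex67-AA strain, which the Dcp2-AID strain lacks, and the Pab1-AID strain carries these and the FRB-tagged MEX67, with auxin and without. Samples of the pan2 ccr4 deletion strain, thiolutin replicate B and the 60 min sample of Mex67-AA replicate C were not analysed here.

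A few libraries stood apart. In the 0 min library of Mex67-AA replicate A, 78.1% of the counts of 10 or more were multiples of 3, against 29.6 to 33.6% in the other 57 columns, so each read appears to be listed 3 times, and results with this library are also given without it. The 25 °C Mex67-AA column equals the sum of the 0 min libraries A and B for 13201 of 13201 transcripts. The heat stress libraries of replicate D at 0 and 4 min hold 86022 and 25838 reads, with 60 and 17 reads on SUTs. Reads of ENO2, a spike-in from unrelated libraries, were removed from all totals. Without them, the depth ranged over 188519 to 2184459 reads per library with rapamycin, 25838 to 668505 under heat stress, 320726 to 777753 with thiolutin, and 348649 (pop2 deletion) to 5504907 (WT) in the other columns. The targeted transcripts were low where the gene was deleted or its protein depleted from a tagged allele: DCP2 had 8.18 RPM (reads per 1000000 reads of the library without ENO2) in Dcp2-AID against 87.8 in the AID control, XRN1 11.8 in Xrn1-AID against 149 in the AID control, CCR4 4.26 in the ccr4 deletion against 30.0 in WT, PAN2 0.692 in the pan2 deletion against 32.0 in WT, and POP2 2.87 in the pop2 deletion against 59.3 in undigested WT RNA. PAB1 had 30.7 and 39.9 RPM after 1 h and 2 h of auxin and 23.1 without auxin. Auxin and 1-NAA act on the protein, so the transcript level gives no check of the depletion of Dcp2, Xrn1 or Pab1.

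By position, 118 of the 233 SUTs (50.6%) overlapped an mRNA on the other strand by 50 bases or more, 66 (28.3%) were divergent, with a start within 500 bases of the start of an mRNA on the other strand, and 49 (21.0%) were neither. Antisense SUTs were the longest class, with a median of 760 bases, against 388 bases for divergent SUTs and 472 bases for the rest. The median length of all SUTs was 528 bases (72 to 4912), the same as that of CUTs (528) and below those of XUTs (824) and mRNAs (1448). Most SUTs had few reads. Only 89 reached 10 reads in any column, 144 did not, 1 had no read at all, and 2 (SUT103 and SUT662) had reads in each of the 58 columns. The median SUT had 41 reads over all columns.

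Some of the SUTs with the most reads are shown here as the first 200 bases of the RNA from the reference genome (RefSeq R64, which is sacCer3, 5′ to 3′), chosen because the level results below turn on them. Capitals mark the letters GTAG or GTAA, recognised by the RNA-binding protein Nrd1, and TCTT, recognised by its partner Nab3; both proteins end the transcription of short noncoding RNAs. SUT103 (chrVI:89578-90769, plus strand) lies antisense to EPL1, which encodes a subunit of the NuA4 histone acetyltransferase. SUT226 (chrXI:115101-115556, plus strand) overlaps LST4 antisense by 260 bases and starts 213 bases from the start of STE3, the gene of the a-factor receptor, on the other strand. SUT575 (chrVIII:78959-80438, minus strand) is antisense to YHL012W. SUT228 (chrXI:143189-144324, plus strand) is divergent from PIR1, the gene of a cell wall protein. SUT329 (chrXIV:355780-356387, plus strand) has no mRNA overlapping it or starting beside it. SUT355 (chrXV:96659-97058, plus strand) is antisense to YOL118C and starts near MCH4, which encodes a transporter-like membrane protein.
SUT103: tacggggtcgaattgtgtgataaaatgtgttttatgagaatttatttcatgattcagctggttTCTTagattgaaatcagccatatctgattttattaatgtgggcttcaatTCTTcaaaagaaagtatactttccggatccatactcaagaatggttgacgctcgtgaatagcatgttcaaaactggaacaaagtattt
SUT226: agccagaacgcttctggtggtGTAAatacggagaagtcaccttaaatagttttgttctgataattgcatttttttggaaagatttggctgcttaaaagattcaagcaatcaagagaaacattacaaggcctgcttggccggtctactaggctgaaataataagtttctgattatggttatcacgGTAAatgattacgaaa
SUT575: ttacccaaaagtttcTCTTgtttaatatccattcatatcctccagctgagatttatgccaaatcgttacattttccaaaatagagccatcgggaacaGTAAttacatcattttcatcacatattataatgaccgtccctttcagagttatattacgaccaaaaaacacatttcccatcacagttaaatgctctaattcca
SUT228: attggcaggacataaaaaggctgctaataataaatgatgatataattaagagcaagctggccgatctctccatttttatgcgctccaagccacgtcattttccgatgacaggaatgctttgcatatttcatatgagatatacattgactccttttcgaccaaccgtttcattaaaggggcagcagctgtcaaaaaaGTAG
SUT329: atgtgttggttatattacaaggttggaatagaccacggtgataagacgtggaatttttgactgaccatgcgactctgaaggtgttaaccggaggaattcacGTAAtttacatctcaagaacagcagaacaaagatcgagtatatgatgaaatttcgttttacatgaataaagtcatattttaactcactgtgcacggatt
SUT355: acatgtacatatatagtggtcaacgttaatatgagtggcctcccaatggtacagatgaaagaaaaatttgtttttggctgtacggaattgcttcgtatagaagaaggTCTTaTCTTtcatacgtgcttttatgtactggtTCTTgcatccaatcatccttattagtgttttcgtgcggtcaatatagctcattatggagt
Over the 216 SUTs with a window of 200 bases, 76.9% held GTAG or GTAA, 65.7% held TCTT and 48.6% held both on the sense strand. These shares lay between those of mRNAs (71.4%, 61.6% and 43.0% of 5846) and those of XUTs (80.9%, 71.3% and 57.1% of 1114), and CUTs had the highest (85.8%, 84.4% and 72.1% of 703). Such matches describe letters and are not measured binding sites.

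At 0 min of the Mex67-AA chase, a few SUTs held a large part of the SUT reads: the 10 most abundant took 37.0, 35.2 and 32.4% of them in replicates A, B and C (34.8 ± 2.33%, SD, n = 3). SUT103 was the highest, with 35.7, 30.4 and 34.2 RPM. SUT226 followed with 20.6, 25.9 and 32.1 RPM. SUT388, at chrXV:1003956-1004467 on the plus strand, had 17.9, 19.7 and 27.8, and was neither antisense nor divergent by the rules above. Neighbours in this order overlapped: SUT457 averaged 19.1 ± 2.95 RPM and SUT105 19.0 ± 6.47, against 21.8 ± 5.29 for SUT388 (SD, n = 3 each). SUT457 (chrIII:176599-176942, minus strand) was likewise neither antisense nor divergent. SUT105 (chrVI:110186-110553, plus strand) is divergent from IES1, a gene of the Ino80 chromatin remodelling complex. The rest of the leading 10, SUT662, SUT114, SUT711, SUT023 and SUT575, averaged 12.4 to 16.8 RPM. Of these, SUT662 lies antisense to MRP8, SUT711 to YLR446W, SUT023 to YBR292C and SUT575 to YHL012W, and SUT114 was neither antisense nor divergent.

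All SUTs together took 0.0220 to 0.0673% of the reads of a library in the Mex67-AA chase (median 0.0306%), 0.0342 to 0.0757% in heat stress (median 0.0595%) and 0.0361 to 0.0546% with thiolutin (median 0.0488%). In a single library of the 3 chases, 14 to 113 SUTs had a read and at most 33 had 10 reads. At an equal depth of 100000 reads, 17.5 to 43.5 SUTs would be seen in libraries of the Mex67-AA chase, 25.8 to 44.4 in the 16 heat stress libraries deep enough, and 25.4 to 35.1 with thiolutin. The share is a fraction of the poly(A)+ RNA in the library, so fewer SUT molecules and more of the other RNAs cannot be told apart, and its intervals cover counting error only.

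Dcp2-AID and Xrn1-AID cells address whether SUTs are substrates of decapping and of the cytoplasmic 5′ to 3′ exonuclease. Both depletions share the AID control, and each group has 1 column, so values carry counting intervals and no replicate test. SUTs took 0.2495% of the reads in Dcp2-AID cells (2441 reads) and 0.0972% in the AID control (1704 reads), a ratio of 2.57 (95% counting interval 2.41 to 2.73). In Xrn1-AID cells they took 0.162% (1651 reads), a ratio of 1.67 to the same control (1.56 to 1.78). XUTs, the class defined by Xrn1, had share ratios of 2.78 in Dcp2-AID and 1.58 in Xrn1-AID, CUTs 2.02 and 1.44, and mRNAs 0.981 and 0.988.

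**Figure D1:**
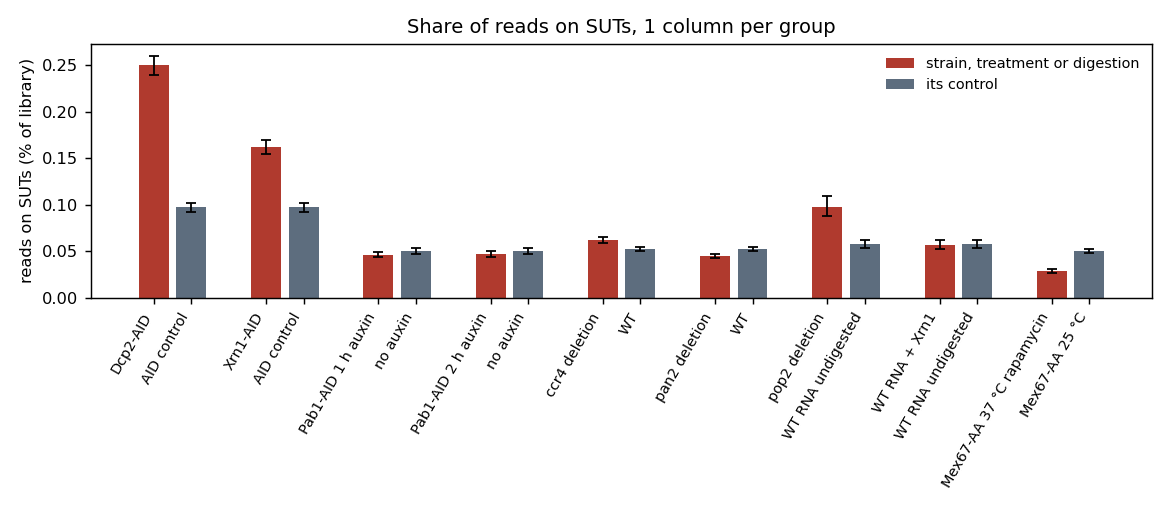
Share of reads on SUTs (percent of all reads without ENO2, linear axis from 0) in each strain, treatment or digestion (red) and in its control (grey), 1 column per bar, with 95% Clopper-Pearson counting intervals. Dcp2-AID stands highest at 0.2495%, followed by Xrn1-AID at 0.162% and pop2 deletion at 0.0978%, and Mex67-AA at 37 °C is lowest at 0.0285%.

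Of the 56 SUTs with 20 or more reads over both columns, 38 (67.9%) were more than 2-fold higher in Dcp2-AID than in the AID control and 0 were more than 2-fold lower. Over all 5657 transcripts read this way, 20.6% were past 2-fold higher and 2.37% past 2-fold lower. The filter adds both columns, so a SUT with few control reads reached it only where it was high in Dcp2-AID, as SUT520 was (23 reads against 4). The excess of SUTs over all transcripts was not separated from this. The comparisons below use the same filter, while the share of reads above uses none. The median log2 ratio of the SUTs was 1.44, against 0.42 for all transcripts. SUTs of all 3 position classes were among them, with 18 of 27 antisense, 9 of 15 divergent and 11 of 14 other SUTs past 2-fold higher. The XUTs had 325 of 419 past 2-fold higher with a median log2 ratio of 1.62, and the joined IDs that hold a SUT name had 269 of 353 with a median of 1.54.

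In Xrn1-AID, 18 of 48 SUTs were past 2-fold higher and 1 was past 2-fold lower, against a background of 13.5% higher and 9.1% lower over 5504 transcripts. The median log2 ratio was 0.76 for SUTs and 0.14 for all transcripts. Here 10 of 27 antisense and 6 of 11 other SUTs were past 2-fold higher, and 2 of 10 divergent ones, SUT228 among them. The difference between the classes was not tested. At 10 or more reads over both columns, 22 of 73 SUTs were past 2-fold higher and 8 past 2-fold lower, against 14.2% and 9.59% of 5924 transcripts.

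SUT329 had 123 reads (126 RPM) in Dcp2-AID and 32 reads (18.2 RPM) in the AID control, the largest log2 ratio among SUTs with at least 50 reads, at 2.77 (95% counting interval 2.21 to 3.39). SUT228 had 219 reads (224 RPM) in Dcp2-AID against 58 (33.1 RPM) in the control, a log2 ratio of 2.75 (2.34 to 3.20), and in Xrn1-AID it had 104 reads (102 RPM), a log2 ratio of 1.62. It was higher in both depletions, while PIR1, the gene it diverges from, had 392 reads in Dcp2-AID, 225 in Xrn1-AID and 652 in the control, log2 ratios of 0.11 and -0.75. SUT103 had the largest log2 ratio in Xrn1-AID among SUTs with at least 50 reads, with 117 reads (115 RPM) against 22 (12.5 RPM) in the control, a log2 ratio of 3.17 (2.53 to 3.92), and in Dcp2-AID it had 42 reads (42.9 RPM), a log2 ratio of 1.76. Its antisense partner EPL1 had 28 reads in Dcp2-AID, 13 in Xrn1-AID and 38 in the control. SUT457 had 173 reads in Dcp2-AID against 95 in the control, a log2 ratio of 1.70.

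SUT355 behaved otherwise. It had 15 reads (14.7 RPM) in Xrn1-AID and 154 (87.8 RPM) in the AID control, a log2 ratio of -2.54 (-3.45 to -1.81), and was the 1 SUT past 2-fold lower there. In Dcp2-AID it had 98 reads (100.2 RPM), a log2 ratio of 0.19. MCH4, whose start lies near its own on the other strand, had 37 reads in Xrn1-AID, 119 in Dcp2-AID and 370 in the control, log2 ratios of -2.52 and -0.79. Both transcripts of this locus were thus lower in Xrn1-AID than in the control. Among the other SUTs with small ratios, SUT017 (antisense to IML3, a kinetochore gene) had 29 reads in Xrn1-AID, 55 in Dcp2-AID and 77 in the control, log2 ratios of -0.61 and 0.36.

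The pA-tails of SUTs were shorter in both depletions. Over the 38 SUTs with at least 10 reads in both columns, the mean tail was shorter in 36 in Dcp2-AID, with a median difference of -10.0 adenosines (-26.2 to 1.05), and the median over SUTs was 30.8 adenosines in Dcp2-AID and 42.1 in the control. All 5410 transcripts had a median difference of -5.62 adenosines. In Xrn1-AID, 30 of 34 SUTs had shorter tails, with a median difference of -7.91 adenosines against -2.84 for all 5185 transcripts. XUT tails differed by -12.5 (Dcp2-AID) and -8.83 adenosines (Xrn1-AID), those of mRNAs by -5.31 and -2.52. The pooled tail values have no replicate spread, so these differences have no error of their own. The study reports that DRS detects RNAs with short tails less efficiently, so the shortening in both depletions may be underestimated.

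SUT020 (antisense to ICS2) had the largest tail difference among SUTs with at least 30 reads in both columns, with 38.8 adenosines in Dcp2-AID, 40.1 in Xrn1-AID and 56.9 in the control. SUT350 (divergent from HPF1, the gene of a cell wall mannoprotein) had 36.5 in Dcp2-AID, 37.2 in Xrn1-AID and 52.6 in the control, and SUT560 (antisense to PEX4) 29.3, 35.4 and 43.6 in the same order. These 3 SUTs had shorter tails in both strains, but their levels differed: SUT350 had 134 reads in Dcp2-AID, 44 in Xrn1-AID and 89 in the control, log2 ratios of 1.43 and -0.23. SUT103, whose level was higher in Xrn1-AID, differed little in tail, 36.2 adenosines there against 37.95 in the control, and so did SUT023, 36.1 against 36.4 adenosines, at 62 reads against 26.

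**Figure D2:**
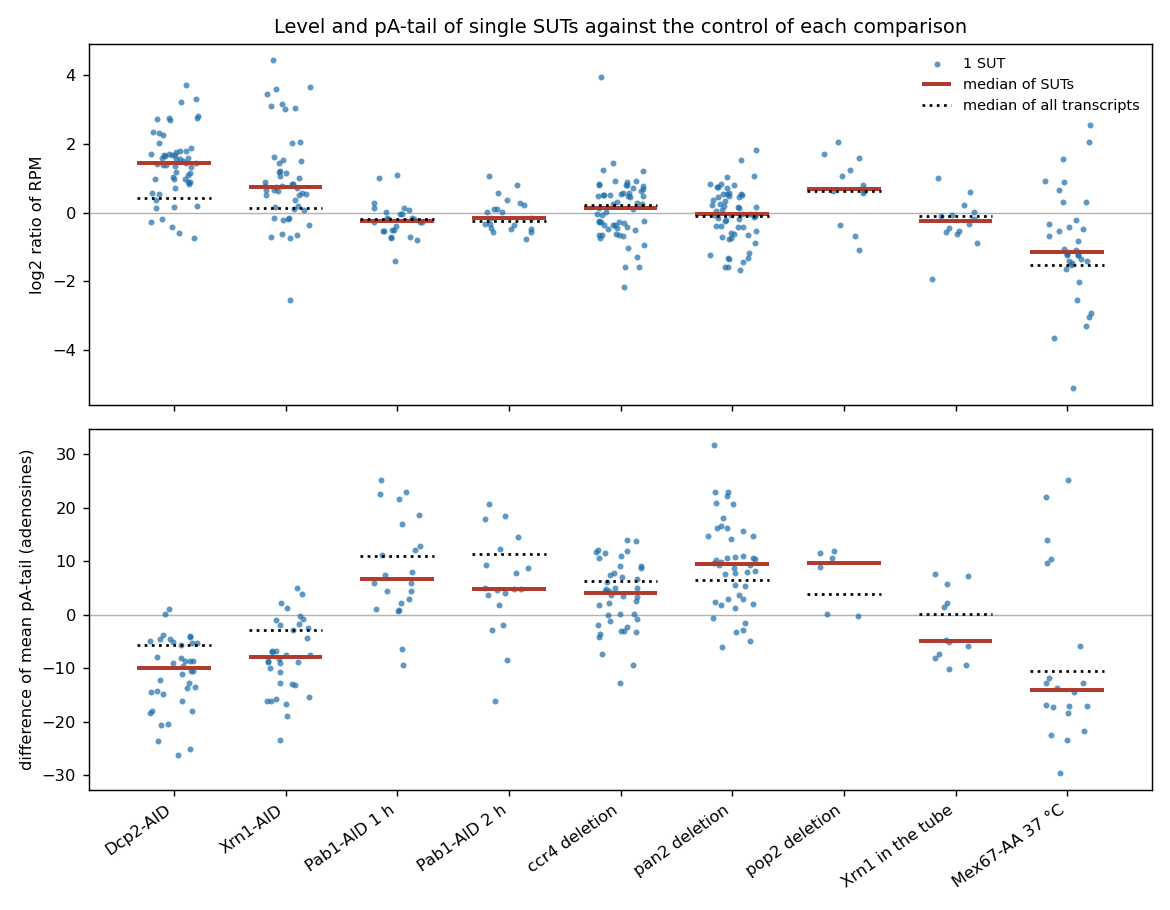
Upper panel, log2 ratio of RPM of each SUT with 20 or more reads over both columns; lower panel, difference of its mean pA-tail in adenosines with 10 or more reads in both columns, for 9 comparisons of 1 column per group (points, single SUTs; red line, median of SUTs; dotted line, median of all transcripts). The SUT median level stands furthest above all transcripts in Dcp2-AID (1.44 against 0.42), and SUT tails are shorter there by a median of 10.0 adenosines and longer by 9.52 adenosines in pan2 deletion.

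SUT226 was high in the columns where alpha-cell genes were high. It had 31 reads in Xrn1-AID and 2 in Dcp2-AID, against 2 in the AID control, a log2 ratio of 4.44 for Xrn1-AID. It also had 136 reads (58.0 RPM) in ccr4 deletion and 20 (3.63 RPM) in WT, a log2 ratio of 3.97 (3.31 to 4.75), and 22 reads (7.62 RPM) in pan2 deletion, a log2 ratio of 1.07. In each of these columns its neighbour STE3, expressed in alpha cells, moved with it: 272 RPM in Xrn1-AID and 8.55 in the AID control, 343 in ccr4 deletion, 42.2 in pan2 deletion and 5.45 in WT.

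The mating-type genes were chosen after these values were seen. The alpha-factor gene MF(ALPHA)1 had 55.9 RPM in Xrn1-AID and 0 in the AID control, 167 in ccr4 deletion, 10.4 in pan2 deletion and 0.363 in WT. STE2, the alpha-factor receptor gene of a cells, had 38.2 in Xrn1-AID and 369.5 in the AID control, 12.8 in ccr4 deletion, 119.8 in pan2 deletion and 184 in WT. BAR1, an a-cell gene, had 18.6 in Xrn1-AID and 111 in the AID control, 7.25 in ccr4 deletion, 62.0 in pan2 deletion and 76.8 in WT. At 0 min of the Mex67-AA chase, STE3 stood at 312 to 428 RPM and STE2 at 0 to 2.68, while in heat stress SUT226 had 0 to 11.6 RPM (median 0.884) with STE2 at 107 to 269, and with thiolutin it had 0 to 3.88 (median 0). The study's strain list gives MATa for the ccr4 and pan2 deletion strains and the WT to match them. It gives MAT A for W303, from which it derives the Xrn1-AID and Mex67-AA strains. Whether the sequenced cells had the listed mating type was not tested. For SUT226 the mating type of the cells and the depletion or deletion cannot be told apart. Without SUT226, the log2 ratio of the SUT share was 0.13 in place of 0.26 in ccr4 deletion, 0.71 in place of 0.74 in Xrn1-AID and -0.24 in place of -0.22 in pan2 deletion.

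Pab1, the cytoplasmic poly(A)-binding protein, coats the tail, and its depletion asks how SUT levels and tails differ with less of it. The protein was only partly depleted. The 2 auxin columns share the column without auxin. SUTs took 0.0464% of the reads after 1 h of auxin and 0.0472% after 2 h, against 0.0498% without auxin, ratios of 0.931 (95% counting interval 0.849 to 1.02) and 0.947 (0.858 to 1.05). A difference in share was therefore not detectable at this depth. Of 26 SUTs with 20 or more reads, 2 were past 2-fold higher after 1 h (SUT017 with 19 reads against 7, and SUT601 with 18 against 7) and SUT479 was past 2-fold lower (8 reads against 18), with a background of 0.924% higher and 2.99% lower. After 2 h, only SUT601 of 21 SUTs was past 2-fold, with 14 reads against 7, with a background of 2.01% higher and 8.43% lower. These 3 SUTs were named for the counts after their values were seen, and the counting intervals of the log2 ratio of SUT601 (-0.25 to 2.58 after 1 h) and SUT017 (-0.16 to 2.65) include 0.

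SUT tails were longer after auxin. After 1 h of auxin, 20 of 22 SUTs had a longer mean tail, by a median of 6.77 adenosines, and after 2 h 15 of 19, by 4.83 adenosines. The medians over all transcripts were larger, 11 adenosines after 1 h and 11.3 after 2 h, and those of XUTs were 8.23 and 5.94. Over the SUTs with 20 reads in both columns, the median was 10.2 adenosines after 1 h (6 SUTs) and 8.58 after 2 h (4 SUTs), against 11.1 and 11.4 for all transcripts. SUT457 had 65.3 adenosines after 1 h and 60.7 after 2 h, against 42.2 without auxin, at 34, 25 and 34 reads. SUT662 had 52.9 and 46.6, against 34.2 adenosines without auxin. SUT103 differed less, with 53.6 and 55.4 adenosines against 50.6 without auxin.

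Ccr4 and Pop2 are subunits of the Ccr4-Not deadenylase, and Pan2 is the catalytic subunit of the other cytoplasmic deadenylase. The ccr4 and pan2 deletions share the WT column. SUTs took 0.0624% of the reads in ccr4 deletion and 0.0522% in WT, a ratio of 1.20 (95% counting interval 1.12 to 1.27). In pan2 deletion they took 0.0448%, a ratio of 0.858 (0.803 to 0.917). These intervals leave out the spread between libraries. In single 0 min libraries the share was 0.0512, 0.0475 and 0.0673% in Mex67-AA and 0.0426, 0.0472 and 0.0698% (shallow D) in heat stress. The WT column also holds reads listed under a second reference. Without those reads the log2 ratio of the share was 0.10 in ccr4 deletion and -0.38 in pan2 deletion. The ratios of single SUTs below keep those reads in the WT total. Without them each ratio would be lower by the same shift as that of the share. SUT226 is kept in the shares here, and without it the ccr4 ratio was also smaller, as given above. The share ratio without both SUT226 and the second reference was not computed, so a higher SUT share in ccr4 deletion is not established.

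In ccr4 deletion, 4 of 59 SUTs were past 2-fold higher and 5 past 2-fold lower, against a background of 8.75% higher and 1.78% lower. Those higher were SUT226, SUT355 (48 reads against 49, log2 ratio 1.20), SUT097 (20 against 17) and SUT791 (10 against 10). Those lower were SUT103, with 12 reads in ccr4 deletion and 87 in WT (log2 ratio -1.58, -2.64 to -0.75), SUT711 (12 against 59, -1.02), SUT504 (2 against 26), SUT554 (5 against 31) and SUT717 (3 against 24), of which SUT097, SUT791, SUT504, SUT554 and SUT717 were named after their values were seen. The median log2 ratio of SUTs was 0.14 and that of all transcripts 0.22. EPL1, on the other strand of SUT103, had 48 reads in ccr4 deletion and 44 in WT, a log2 ratio of 1.36.

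In pan2 deletion, 4 of 60 SUTs were past 2-fold higher and 9 past 2-fold lower, against 1.57% and 8.33% of all transcripts. SUT336 (antisense to ARK1, a protein kinase gene) had 29 reads in pan2 deletion and 27 in WT, a log2 ratio of 1.03. The others higher were SUT226, SUT243 (19 reads against 10) and SUT725 (14 against 9), and the last 2 were named after their values were seen. Without the reads of the second reference in the WT total, SUT336 and SUT226 would not be past 2-fold higher. SUT350 had 35 reads against 170, a log2 ratio of -1.33 (-1.92 to -0.82), SUT479 10 against 54 (-1.45), and RUF20_SUT527 (antisense to SEC4, a secretory Rab GTPase gene) 7 against 45 (-1.67).

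Tails of SUTs were longer in the 3 deletion strains by medians of 4.04 adenosines in ccr4 deletion (29 of 42 SUTs longer), 9.52 in pan2 deletion (38 of 44) and 9.75 in pop2 deletion (5 of 6). For all transcripts the medians were 6.29, 6.57 and 3.96 adenosines in the same order, and for XUTs 3.27, 11.2 and 2.94. The differences from all transcripts in ccr4 and pop2 deletion depended on the reads and the tail measure: with 20 reads in both columns the ccr4 median was 6.13 adenosines over 15 SUTs and 6.36 over all transcripts, and by the median tail the pop2 median was 4.5 for SUTs and 4 for all transcripts. By the median tail, the pan2 median was 10.75 adenosines for SUTs and 6.5 for all transcripts. In pan2 deletion, SUT020 had a mean tail of 66.4 adenosines against 49.8 in WT, SUT457 62.8 against 48.0, and SUT023 64.8 against 54.1. In ccr4 deletion, SUT388 had 62.6 adenosines against 51.7 in WT, and the transcript listed as SUT274,SUT275 had 44.0 against 32.4. SUT226 had 36.6 adenosines in ccr4 deletion and 44.0 in WT.

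In pop2 deletion, SUTs took 0.0978% of the reads and in undigested WT RNA 0.0574%, a ratio of 1.71 (95% counting interval 1.495 to 1.942). Each side is a single sample, and the interval leaves out the spread between libraries. The pop2 library is the shallowest of these columns, and 13 SUTs had 20 reads over both columns. Of these, 5 were past 2-fold higher and SUT020 was past 2-fold lower (2 reads against 19), while 29% of all transcripts were past 2-fold higher and 1.85% past 2-fold lower. SUT388 had 22 reads in pop2 deletion against 19 in WT RNA, a log2 ratio of 2.07 (1.12 to 3.04). The others higher were SUT355 (17 against 19), SUT228 (15 against 18), SUT457 (17 against 30) and SUT114 (11 against 17), and with SUT388 and SUT020 they were named here after their values were seen. The median log2 ratio was 0.70 for SUTs and 0.62 for all transcripts. SUT350, the only SUT with 50 reads, had a tail of 62.1 adenosines against 50.1.

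Digestion of WT RNA with purified Xrn1 removes RNA with a 5′ monophosphate, which capped RNA lacks. SUTs took 0.0568% of the reads after digestion and 0.0574% before, a ratio of 0.991 (95% counting interval 0.887 to 1.11), and the control is the same undigested RNA as for pop2 deletion. Of 14 SUTs, SUT355 was past 2-fold higher (32 reads against 19, log2 ratio 1.02, 0.17 to 1.93) and SUT662 past 2-fold lower (5 against 25, -1.93, chosen for its count after its value was seen), against 1.67% higher and 5.55% lower over all transcripts. The SUT median log2 ratio was -0.25 and that of all transcripts -0.10. The tail differences pointed both ways, with 7 of 12 SUTs shorter, a median of -4.97 adenosines and 0.104 for all transcripts. This median was not stable: it was -0.50 by the median tail, -0.881 over the 2 SUTs with 20 reads in both columns, and 1.28 over 9 SUTs with the second deposit of the digested sample.

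In the Mex67-AA chase the export of new mRNA is blocked, and mainly the RNA already in the cytoplasm is followed. The study reports that a few new mRNAs escape decay in the nucleus and gain long tails, and that they weigh more in late libraries. It left the last times out of its deadenylation modelling for this reason. Whether late SUT reads come from such RNAs was not tested. The share of SUT reads was lower at every later time than at 0 min of its replicate. In replicate A it was 0.0512% at 0 min and 0.0297, 0.0263, 0.0258, 0.0220 and 0.0287% at 8, 12, 14, 16 and 30 min. In replicate B it was 0.0475% at 0 min and 0.0432, 0.0312, 0.0266, 0.0252 and 0.0253% at 4, 10, 12, 14 and 20 min, and in replicate C 0.0673% at 0 min and 0.0495, 0.0392, 0.0306 and 0.0487% at 4, 8, 16 and 30 min. The slope of the log2 share up to 16 min was -0.0809 ± 0.00502 per min (mean and SD, n = 3 replicates). Over all times it was -0.0312 ± 0.0240 per min, and the 30 min libraries of A and C stood above their 16 min libraries. The slopes over all times of XUTs (-0.0444 ± 0.0311) and CUTs (-0.0185 ± 0.0297) overlapped that of SUTs.

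**Figure D3:**
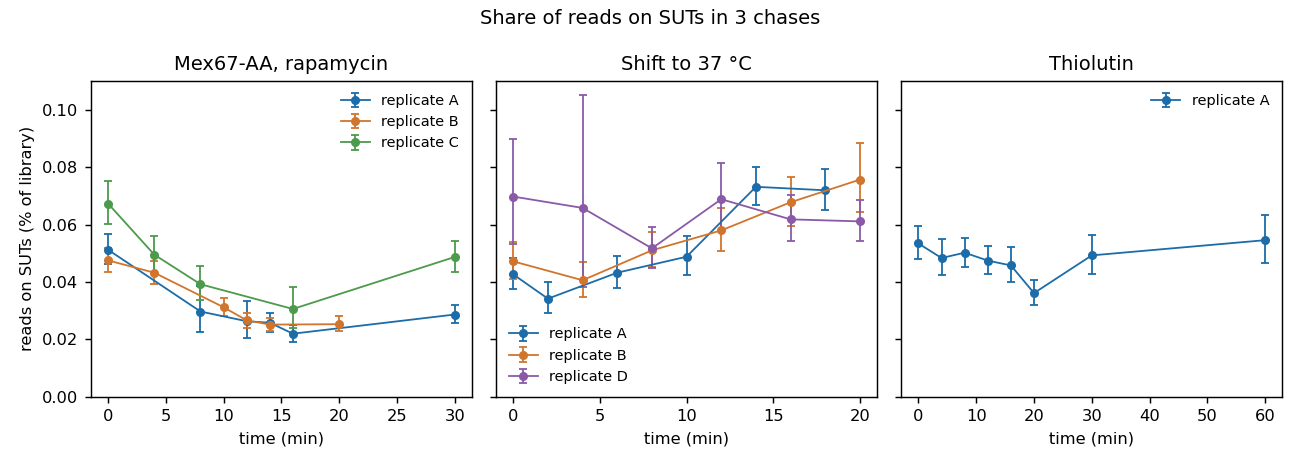
Share of reads on SUTs (percent of all reads without ENO2) against time in min in the Mex67-AA, heat stress and thiolutin chases, 1 point per library with its 95% Clopper-Pearson counting interval, coloured by replicate. All later Mex67-AA libraries sit below their own 0 min library (0.0475 to 0.0673%), and heat stress replicates A and B reach 0.0719 and 0.0757% at their last times, while replicate D does not.

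Slopes in time were tested by edgeR's quasi-likelihood test with a term for the replicate. Only 19 SUTs had a mean of 5 reads per library, and of these 7 fell and 0 rose (8 had an unadjusted p under 0.05, and DESeq2 called 8 falling and 0 rising), against 75.4% falling and 5.34% rising of 4343 transcripts. The median slope of SUTs was -0.0429 log2 per min and that of all transcripts -0.0703 per min. This direction depends on the scaling: with TMM factors the median of all transcripts was -0.0166 and that of SUTs 0.0098 per min, and 0 SUTs fell and 3 rose (SUT105, SUT228 and SUT575), against 34.2% falling and 21.4% rising of all transcripts. Over all times, the SUT median was higher than that of all transcripts under each scaling used. Up to 16 min the medians lay close, at -0.0994 per min for 20 SUTs and -0.103 for 4396 transcripts, so the difference rests on the later libraries. Reads on rRNA moved in the same libraries, with 0.104% at 0 min and 0.779% at 30 min in A and 0.196% and 1.29% in C, and their part in the slopes was not tested. Without the 0 min library of replicate A, 3 of 17 SUTs fell (SUT226, SUT457 and SUT023) against 69.2% of all transcripts, and without the 30 min library of replicate C, 10 of 19 fell against 75.5%.

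SUT457 fell by 0.0989 ± 0.0189 log2 per min (SE, edgeR adjusted p = 8.95e-05). It had 21.97, 10.6, 3.99, 7.75, 4.72 and 0.846 RPM in replicate A from 0 to 30 min, 16.1, 17.4, 6.02, 9.67, 6.46 and 5.48 in B from 0 to 20 min, and 19.2, 12.2, 18.2, 16.5 and 5.85 in C from 0 to 30 min. The last library of each replicate was the lowest. SUT226 fell by 0.0723 ± 0.0173 per min (edgeR adjusted p = 0.000792), with 20.6, 15.9, 27.9, 13.3, 17.9 and 8.46 RPM in A, 25.9, 22.2, 22.3, 17.4, 21.0 and 9.60 in B, and 32.1, 30.6, 29.6, 0 and 4.39 in C. In A and B the last library was the lowest, and in C those at 16 and 30 min. STE3, beside it, fell by 0.157 per min (edgeR adjusted p = 1.18e-12).

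SUT388 had 17.9, 10.6, 0, 1.11, 0.944 and 5.92 RPM in A, 19.7, 12.5, 8.59, 5.80, 2.15 and 2.74 in B and 27.8, 8.15, 2.28, 0 and 7.31 in C. The lowest value of each replicate came at 12, 14 or 16 min, and the slope over all times was -0.0848 ± 0.0305 per min (edgeR adjusted p = 0.0152). The other 4 that fell were SUT023 (-0.0833, edgeR adjusted p = 0.00664), RUF20_SUT527 (-0.0648, 0.0147), SUT520 (-0.0672, 0.0167; antisense to YER175W-A, near ECM32) and SUT355 (-0.0636, 0.0271). SUT457 and SUT226 kept their call with any 1 replicate left out, with edgeR adjusted p up to 0.00762 and 0.0110. SUT388 lost it without replicate B (adjusted p = 0.157), SUT355 without C (0.228) and RUF20_SUT527 without A (0.0671), all by edgeR.

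SUT105 and SUT575 did not pass the test. SUT105 had 21.97, 5.30, 7.98, 11.1, 17.0 and 12.7 RPM in A, 11.6, 13.5, 15.5, 12.2, 11.3 and 24.7 in B, and 23.5, 16.3, 11.4, 20.7 and 16.1 in C, a slope of -0.00120 ± 0.0148 per min (edgeR adjusted p = 0.944). SUT575 had 9.61, 5.30, 7.98, 5.54, 1.89 and 22.8 in A, 17.0, 9.65, 3.44, 1.93, 7.002 and 8.91 in B, and 10.7, 6.11, 6.84, 0 and 20.5 in C. Its lowest values lie between 12 and 16 min and its highest at 30 min in A and C. SUT103 had 35.7, 5.30, 7.98, 4.43, 5.66 and 10.99 RPM in A, 30.4, 18.3, 12.9, 6.45, 11.3 and 8.91 in B, and 34.2, 26.5, 2.28, 28.9 and 30.7 in C. It was below its 0 min level in every later library, but in C only the 8 min library was far below. Fitted only up to 16 min, 13 of 20 SUTs fell, against 77% of 4396 transcripts. Among them were SUT103 (-0.162 per min, edgeR adjusted p = 4.99e-06), SUT388 (-0.263, 4.40e-08) and SUT575 (-0.140, 0.000639), and SUT226 (-0.0415, 0.0770) and SUT105 (-0.0297, 0.231) did not pass.

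No SUT had enough reads for the test of tails in time, which among 1659 other transcripts called 1560 shortening and 16 lengthening up to 16 min (limma). The mean tails of single SUTs with 10 or more reads are therefore described. SUT226 had tails of 31.1 adenosines at 0 min and 12.8, 10.1 and 11.6 at 14, 16 and 30 min in A, 23.0 at 0 min and 26.3, 16.9, 12.6, 13.9 and 16.9 at 4, 10, 12, 14 and 20 min in B, and 30.9, 16.5 and 24.2 at 0, 4 and 8 min in C. From 10 min on, they lay below every 0 min value. The study reports that DRS detects RNAs with short tails less efficiently, so means this low are uncertain. SUT575 went the other way, with 48.0 adenosines at 0 min and 82.9 at 30 min in A, 42.4, 52.1, 84.6 and 65.0 at 0, 4, 14 and 20 min in B, and 64.7 at 30 min in C. Longer late tails were not particular to it: the median over XUTs was 23.6 adenosines at 16 min and 40.8 at 30 min in A. That over mRNAs was 23.5 and 30.1 in A and 22.8 and 28.6 in C. From 14 to 20 min in B these medians differed less, 26.9 and 28.2 for XUTs and 25.6 and 25.8 for mRNAs. Each median covers the transcripts with 10 reads in that library. SUT103 had 49.8 and 55.9 adenosines at 0 and 30 min in A, 44.2, 45.6, 48.8, 71.8, 51.3 and 53.6 in B, and 52.4, 42.1 and 44.4 at 0, 4 and 30 min in C. Its tails thus stayed between 42.1 and 71.8 adenosines, and SUT017 had 42.6, 47.7, 58.0 and 65.3 at 0, 10, 14 and 20 min in B. In SUT105, tails were 27.4 to 45.6 adenosines at 0 min and 19.9 to 44.5 later.

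**Figure D4:**
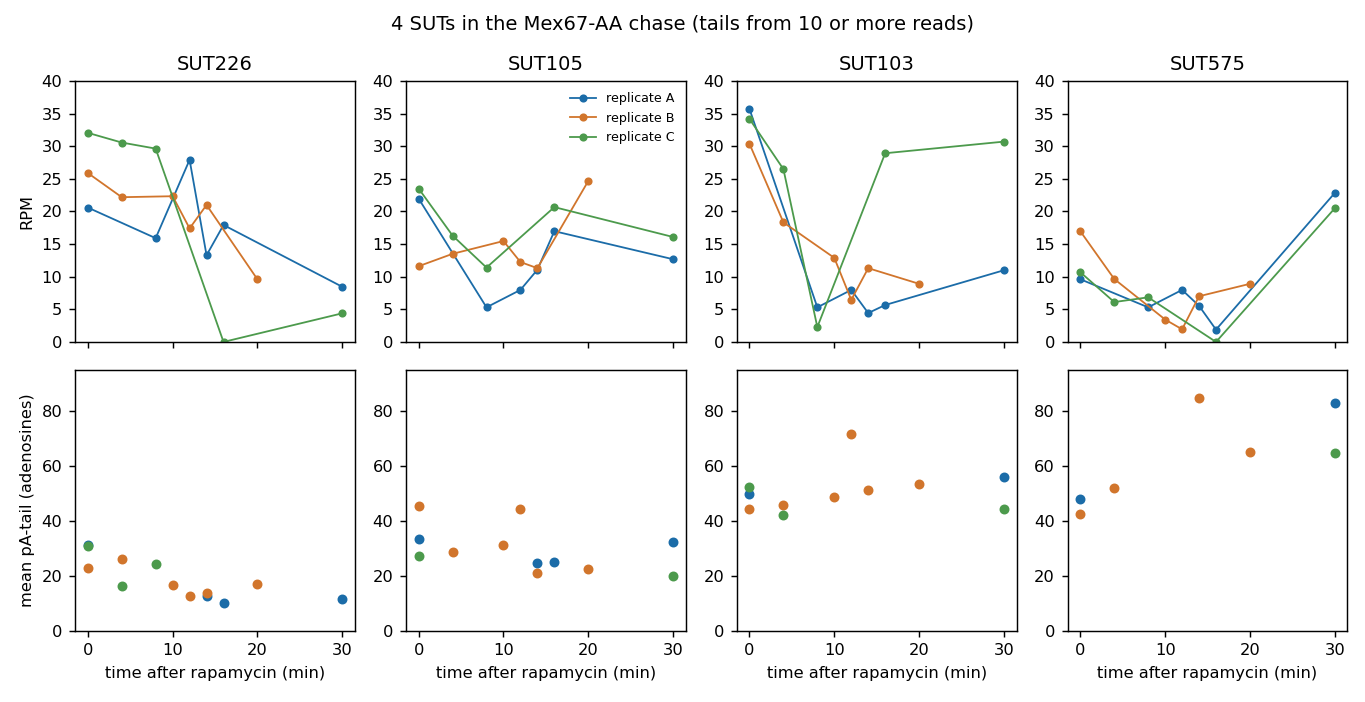
RPM (upper panels) and mean pA-tail in adenosines (lower panels, 10 or more reads) of SUT226, SUT105, SUT103 and SUT575 against min after rapamycin in Mex67-AA, coloured by replicate. SUT226 shows tails of 10.1 to 16.9 adenosines from 10 min on and SUT575 tails of 64.7 to 84.6 adenosines from 14 min on; the direction of the SUT slopes flips with TMM scaling.

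Mex67-AA cells at 37 °C with rapamycin for 16 min had 0.0285% of their reads on SUTs. Those at 25 °C without rapamycin had 0.04997%, a ratio of 0.570 (95% counting interval 0.521 to 0.623). Within this comparison, temperature and rapamycin cannot be told apart. In the chase at 25 °C, the share after 16 min of rapamycin was 0.0220% in A and 0.0306% in C. The part of temperature was not tested. Of 35 SUTs, 20 were past 2-fold lower and 3 past 2-fold higher, against 64.5% lower and 2.75% higher over all transcripts. With the reads of replicate A in the 25 °C column counted 1 time each, 11 of 23 SUTs were lower and 3 higher, against 62.4% and 2.88%. SUT504 (antisense to GLC3, the glycogen branching enzyme gene) had 38 reads at 37 °C and 12 at 25 °C, a log2 ratio of 2.05, and GLC3 had 18 reads against 1. The others higher were SUT426 (19 reads against 4) and SUT280 (16 against 7), named after their values were seen. SUT388 had 5 reads against 61 (-3.06) and SUT457 6 against 66 (-2.93). Tails were shorter in 15 of 20 SUTs, with a median of -14.1 adenosines, and -10.4 for all transcripts, but SUT575 (70.6 against 45.3 adenosines) and SUT103 (58.5 against 48.1) had longer ones.

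Heat stress of WT cells at 37 °C reduces many mRNAs and induces others. The SUT share was 0.0426% at 0 min and 0.0342, 0.0432, 0.0488, 0.0732 and 0.0719% at 2, 6, 10, 14 and 18 min in replicate A, and 0.0472% at 0 min and 0.0406, 0.0510, 0.0580, 0.0678 and 0.0757% at 4, 8, 12, 16 and 20 min in B. In D, whose first 2 libraries are shallow, it was 0.0698, 0.0658, 0.0517, 0.0688, 0.0618 and 0.0611% from 0 to 20 min. The replicates therefore differ, with slopes up to 16 min of 0.0611, 0.0390 and -0.0071 log2 per min in A, B and D (0.0310 ± 0.0348, mean and SD, n = 3). XUTs had 0.0577 ± 0.0191 and CUTs 0.0382 ± 0.0127 per min.

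Of the 6 SUTs with a mean of 5 reads per library up to 16 min, 4 rose and 0 fell by edgeR (4 at an unadjusted p under 0.05, all rising), against 46.6% rising and 15.3% falling of 4110 transcripts, and the DESeq2 test called 4 rising and 0 falling. Without the 2 shallow D libraries, 6 of 11 rose, with SUT554 and SUT560 beside the 4, against 44.4% of 4326 transcripts. The median slope was 0.119 log2 per min for the 6 SUTs and 0.0453 for all transcripts. The filter takes the mean over these libraries, so a SUT low at 0 min could reach it through high late libraries. With no filter beyond 1 read the order turned, with medians of 0.0248 for 176 SUTs and 0.0457 for 7064 transcripts. With 6 SUTs, these counts say little about the SUTs that did not reach the filter.

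SUT329 rose by 0.169 ± 0.0377 log2 per min (edgeR adjusted p = 0.000944). It had 3.54, 12.7, 30.2, 36.2, 59.8 and 45.9 RPM in A, 4.27, 4.54, 45.4, 42.6, 51.7 and 74.7 in B and 0, 77.4 (2 reads), 38.8, 46.2, 29.1 and 33.7 in D. In A and B no library from 6 min on was below 30.2 RPM and no earlier one above 12.7. It was the 1 SUT called with any replicate left out (edgeR adjusted p up to 0.0365). SUT350 had 12.4, 6.37, 19.6, 31.4, 35.9 and 45.9 in A, 2.13, 11.3, 17.0, 25.1, 38.1 and 23.4 in B and 34.9, 0, 24.3, 20.6, 29.1 and 10.54 in D, and rose by 0.127 ± 0.0289 per min (edgeR adjusted p = 0.00113). HPF1, from which it diverges, rose by 0.139 per min (edgeR adjusted p = 0.000132).

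SUT020 had 8.84, 8.49, 21.4, 16.9, 58.3 and 34.9 RPM in A, 10.7, 31.8, 24.6, 45.2, 35.4 and 28.0 in B and 0, 0, 26.7, 61.6, 31.7 and 27.4 in D, and rose by 0.134 ± 0.0307 per min (edgeR adjusted p = 0.00122), with no change called in ICS2 on the other strand (0.0368, adjusted p = 0.462). SUT355 rose by 0.112 ± 0.0369 per min (edgeR adjusted p = 0.0145), and MCH4 beside it by 0.0772 (0.0169). These 3 calls were lost without 1 replicate, while the slopes stayed positive: without A, the slope was 0.0957 per min for SUT020 (edgeR adjusted p = 0.0610) and 0.0770 for SUT355 (0.0937), and without B it was 0.0923 for SUT350 (0.0580). With DESeq2's size factors SUT355 was not called (edgeR adjusted p = 0.0878). SUT103, with 4.67 to 29.5 RPM in A and B and 15.4 to 77.4 in D, and SUT017 did not pass (adjusted p = 0.909 and 0.261).

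Tails of these SUTs were measured only where they had 10 reads. SUT329 had 35.3 to 56.1 adenosines in 11 libraries, and SUT020 43.5 to 67.8 in 11. No SUT had tails at 0 min in every replicate, so no change in time was tested.

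**Figure D5:**
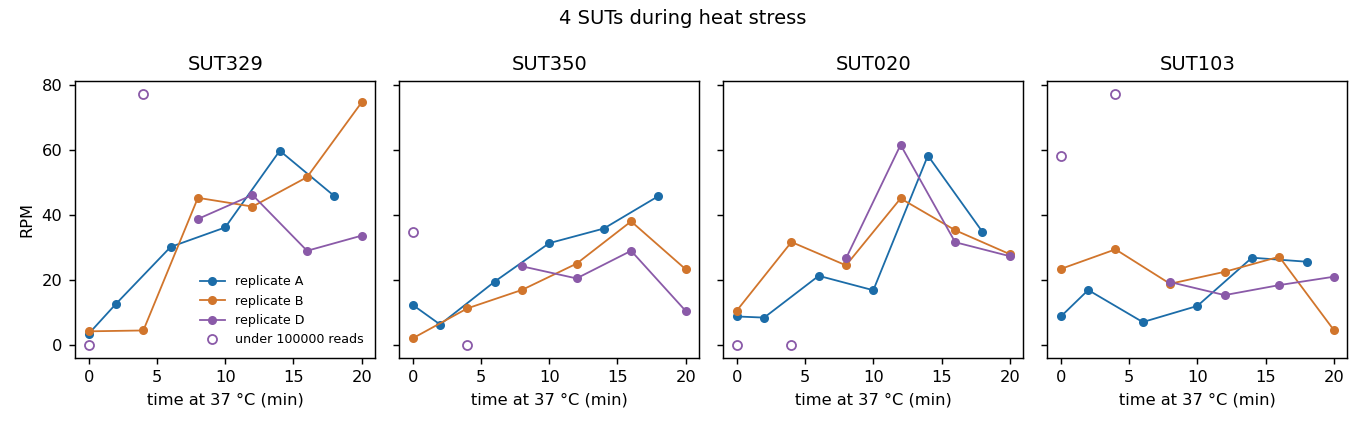
RPM of SUT329, SUT350, SUT020 and SUT103 against min at 37 °C in WT cells, coloured by replicate, with open circles for the 2 libraries under 100000 reads. SUT329 has 3.54 and 4.27 RPM at 0 min and 59.8 and 51.7 at 14 and 16 min in A and B, and SUT103 has no such course.

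With thiolutin, columns per time of replicate A were used, and slopes over this 1 time course are given as a description, with no test. The SUT share was 0.0534, 0.0483, 0.0502, 0.0474, 0.0458, 0.0361, 0.0493 and 0.0546% at 0, 4, 8, 12, 16, 20, 30 and 60 min. The lowest value was at 20 min, and the value at 60 min lay within the counting interval of 0 min. The slope of the log2 share was 0.00160 ± 0.00386 per min (SE from the scatter of the 8 libraries about the line). Of 12 SUTs with a mean of 5 reads per library, 8 had a negative and 4 a positive slope, with a median of -0.00666 log2 per min, while 43.5% of 4473 transcripts had a negative slope, with a median of 0.0039. With no filter on reads the majority turned, with a negative slope in 52 of 166 SUTs (31.3%) and in 37.4% of 7108 transcripts.

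SUT388 had 27.1, 18.9, 20.7, 6.43, 2.00, 1.41, 0 and 6.24 RPM over these times, and SUT457 23.9, 21.0, 22, 25.7, 12.0, 12.7, 6.81 and 12.5. Both were lower from 16 min on than at 0 min. SUT554 (antisense to TPC1, a mitochondrial carrier gene) had 6.38, 6.30, 10.3, 24.4, 42.0, 38.1, 52.2 and 21.8, and SUT017 14.3, 12.6, 19.4, 7.71, 21.98, 18.4, 27.2 and 74.8. These 2, with SUT307 and SUT355, had positive slopes, and SUT554, SUT017 and SUT307 were picked for thiolutin after their values were seen. Whether new transcription added to the slopes with thiolutin was not tested. SUT103 had 36.7, 23.1, 37.5, 24.4, 14.0, 12.7, 29.5 and 28.1 RPM, with tails of 60.4 adenosines at 0 min and 59.5 at 30 min.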

How the data were processed

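Read counts per transcript and pA-tail lengths (mean and median, in adenosines) were used as the authors deposited them. Per the submitters' notes and the study's methods, reads were basecalled with Guppy, mapped with minimap2 2.17 to a custom transcriptome (sacCer3), filtered with SAMtools 1.9, and tails were estimated with Nanopolish from reads that passed its filter; pooled columns combine replicates. Of 1320 value columns in the deposited tables, 348 were used and 972, of other quantities or matching no labelled sample, were not. The deposited count is of whole reads, so SUTs that overlap another transcript on the same strand may share reads with it.

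Counts were divided by the library total without ENO2. In the Mex67-AA and heat stress chases, the slope of each transcript in time was tested with edgeR 4.0.16 (quasi-likelihood test, R 4.3.3, replicate as a block, the 0 min control of Mex67-AA placed after 0 min as in the study, heat stress up to 16 min), for transcripts with a mean of at least 5 reads per library, with Benjamini-Hochberg adjustment over all transcripts and a threshold of 0.05. Tails were fitted with limma 3.58.1 where at least 10 reads gave a value in 80% of the libraries. Groups with 1 column were compared by log2 ratios with 0.5 reads added, for at least 20 reads over both columns. A ratio past 2-fold was counted, with no p-value. Intervals (95%, Clopper-Pearson) cover counting error only. The edgeR and limma fits were tested on simulated data. Sequences came from RefSeq R64, in which 5423 of 5426 mRNAs of the tables overlapped their gene. DESeq2 1.42.0 served as an alternative.

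The replicate letters mark separate time courses, which is where the block comes from. Deviations of same-letter libraries correlated at 0.0681 to 0.767 between replicates of the Mex67-AA chase and at -0.0891 to 0.65 between replicates B and D of heat stress. Named SUTs were the 10 most abundant at 0 min, the 6 falling and 6 rising with the smallest adjusted p per chase, the 5 largest and 5 smallest ratios among SUTs with 50 reads per comparison, the 3 largest tail differences in each direction among those with 30 reads in both columns, SUT457 and SUT719, and genes overlapping or starting beside them. The members, the lists and the rules were chosen with earlier results of these data known. Alternatives changed the scaling, the filters, the tail measure, the times, the block and the libraries left out.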

Additional observations from a re-analysis of the deposited data

How the results depend on the processing

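Of 190 alternative values, 137 kept their direction and size, 45 moved and 8 changed sign. The direction of the calls in the Mex67-AA chase changed with the scaling: with TMM factors or DESeq2's size factors 3 of 19 SUTs were called, all rising, in place of 7 falling, against 34.2 and 33.7% falling and 21.4 and 22.2% rising of all transcripts. Without a filter 48 of 201 SUTs were called (31 falling, 17 rising, against 52.7% and 6.37% of all transcripts), with a mean of 20 reads 0 SUTs were left to test, up to 16 min 13 of 20 were called (77% falling of all), and leaving out a replicate or a doubted library gave 3 to 10. Counting each read of the 0 min A library 1 time gave 6 of 16, against 74.8% falling of all. Without the replicate block 8 of 19 SUTs were called in the Mex67-AA chase and 4 of 6 in heat stress, so the block moved neither count by over 1.5 times. Tails in the Mex67-AA chase gave 0 to 1 called SUT with a replicate left out. In heat stress, 22 of 176 SUTs were called without a filter (16 rising, against 30.3% of all transcripts), 0 were left at a mean of 20 reads, and 2 to 7 were called with a replicate or the shallow libraries left out. With thiolutin, 52 of 166 SUTs had a negative slope without a filter (37.4% of all transcripts) and 0 were left at a mean of 20 reads. TMM factors, the DESeq2 test, fits without a block, leave-one-out and tail slopes were not run for thiolutin, which has 1 replicate with columns.

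The slope of the SUT share was -0.0809 per min up to 16 min in the Mex67-AA chase. With thiolutin it was -0.0043 with ENO2 in the total and -0.0118 up to 16 min. For Xrn1 digestion the log2 ratio of the share was 0.45 with ENO2 in the total, 0.0381 with SUT1 and SUT2, and 0.0489 with the second deposit of the digested sample, where the tail difference was 1.28 adenosines. In ccr4 deletion the log2 ratio of the share was 0.14 with ENO2 in the total, 0.10 without the reads of the second reference and 0.13 without SUT226. Without the reads of the second reference it was -0.38 in pan2 deletion, and with ENO2 in the total it was 1.40 in pop2 deletion.

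With 10 reads over both columns, the SUTs past 2-fold in either direction were 30 of 73 in Xrn1-AID (23.8% of all transcripts), 11 of 65 and 6 of 58 in Pab1-AID after 1 h and 2 h (5.5 and 12%), 19 of 93 in ccr4 deletion (12.1%), 25 of 91 in pan2 deletion (11.7%), 17 of 31 in pop2 deletion (33.6%), 10 of 38 in Xrn1 digestion (9.74%) and 41 of 64 in Mex67-AA at 37 °C (66.9%). With 50 reads they were 16 of 22 in Dcp2-AID (18.9% of all transcripts), 7 of 17 in Xrn1-AID (20.6%), 0 of 4 in Pab1-AID at both times (2.45 and 8.6%), 4 of 21 in ccr4 deletion (8.67%), 4 of 22 in pan2 deletion (7.72%), 0 of 1 in pop2 deletion (25.8%), 1 of 3 in Xrn1 digestion (4.13%) and 10 of 14 in Mex67-AA at 37 °C (66%). With ENO2 in the total, 0 were past 2-fold in Pab1-AID after 2 h and 10 in pop2 deletion, and with the 0 min A reads counted 1 time each, 14 in Mex67-AA at 37 °C. Tail differences by the median tail were -13.3 adenosines in Dcp2-AID, 4.5 in pop2 deletion and -0.50 in Xrn1 digestion, and with 20 reads in both columns they were 6.13 in ccr4 deletion and -0.881 in Xrn1 digestion. The causes were not tested, except where fewer SUTs reached a filter. No paired analysis was possible because the groups outside the chases have 1 column each. Depth limits these values: 144 of 233 SUTs never reached 10 reads and no SUT had enough for a tail slope.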

Other observations

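The protein-coding gene SUT2, which shares the name but not the kind of transcript, fell by 0.154 log2 per min in the Mex67-AA chase (edgeR adjusted p = 1.61e-06), and its slope in heat stress was -0.0123 (adjusted p = 0.643). The joined IDs of XUTs and CUTs that hold a SUT name had a median log2 ratio of 0.89 in Xrn1-AID, with 140 past 2-fold higher and 15 past 2-fold lower of 314. In pan2 deletion their tails were longer by a median of 12.2 adenosines over 229 IDs.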
